A study of Sus scrofa with 18 samples.

Results

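The 6 genes COX1, COX2, COX3, CYTB, ATP6 and ATP8 encode the subunits of respiratory chain complexes III and IV and of ATP synthase (complex V) that are made inside the mitochondrion. They were chosen by name and by their place on the mitochondrial chromosome, and they are 6 of the 20983 genes in the table and 6 of its 13 mitochondrially encoded protein genes, the other 7 being subunits of complex I. RNA was sequenced from pools of porcine parthenogenetic embryos, which develop from an oocyte activated without a sperm and carry no paternal genome. The oocytes were matured in FLI, a medium with EGF, FGF2, IGF1 and LIF, or in DMEM with EGF, IGF1 and FGF. Both media held the hormones PMSG and hCG, and of the growth factors only LIF was confined to 1 medium, FLI. The 2 media thus differ in their base as well as in their factors and doses. All oocytes were activated with ionomycin and 6-DMAP. The groups were 2-cell, 4-cell and 8-cell embryos of FLI oocytes and 2-cell, 4-cell and 8-cell embryos of DMEM oocytes, with 3 pools in each. The study asked whether the maturation medium changes when the embryo starts to transcribe its own genome. The sources do not tell whether pools of 1 group go back to separate oocyte collections, and a p-value here reflects no more than the spread among these pools, which may be technical.

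Mitochondria carry their own circular genome, which the oocyte passes to the embryo in many copies. It is read by the dedicated RNA polymerase POLRMT into long transcripts that cover many genes, and these are cut at the tRNA genes into separate mRNAs. Each of complexes III, IV and V is built from a few subunits made in the mitochondrion and a larger number encoded in the nucleus. CYTB, the only mitochondrially encoded subunit of complex III, passes electrons from ubiquinol towards cytochrome c. COX1, COX2 and COX3 form the core of complex IV, where COX1 holds the centre that reduces oxygen and COX2 takes up electrons from cytochrome c. ATP6 forms part of the proton channel of ATP synthase and ATP8 is a small subunit of its membrane part. Mammalian oocytes and early embryos contain far more mitochondria than most somatic cells, and ATP made in them supports cleavage.

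In the build Sscrofa11.1 the members lie on the mitochondrial chromosome, each as a single exon without an intron. COX1 (ENSSSCG00000018075) is at chrMT:6511-8055, COX2 (ENSSSCG00000018078) at chrMT:8203-8890, ATP8 (ENSSSCG00000018080) at chrMT:8959-9162, ATP6 (ENSSSCG00000018081) at chrMT:9120-9800, and COX3 (ENSSSCG00000018082) at chrMT:9800-10583, in this order and on the same strand. CYTB (ENSSSCG00000018094) lies apart from them at chrMT:15342-16481, behind the complex I genes ND3, ND4L, ND4, ND5 and ND6. ATP8 and ATP6 are carried by 1 mRNA and overlap by 43 bases, which is 21.1% of the 204 bases of ATP8, and ATP6 and COX3 share 1 base. How reads in an overlap were assigned is not given in the sources used here, so the values of ATP8 and ATP6 are uncertain to that extent.

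Library totals ranged from 1737985 to 6781185 counts with a median of 4581572, and the lowest count of any member in any library was 275, for ATP8, so counting error, which leaves out any error of amplification, was at most 6.03% of a member's count. Markers of the oocyte and early embryo were present (10 of 12 in the table, none at 0 in any group) with summed levels of 7577 to 7650 CPM (counts scaled to a common library total) in 2-cell FLI, 1748 to 3260 in 4-cell FLI and 433 to 4189 in 8-cell FLI embryos, and of 6866 to 7680, 1172 to 2492 and 698 to 2537 CPM at the same stages in DMEM embryos. Markers of cumulus and granulosa cells (11 of 13 in the table) summed to 79.1 to 229 CPM over the libraries, with 1 of TNFAIP6, HAS2 and CYP11A1 at 0 in each group, and those of blood and other somatic cells (8 of 9) to 8.69 to 55.4 CPM. These sums move with the stage, and their part in the results was not tested. Likeness within a group was lowest at 8 cells, at a mean Pearson's r of 0.854 to 0.943 with the other 2 libraries of their group over 13174 nuclear genes, and FLI replicates 2 and 3 and DMEM replicate 1 had the lowest values in their groups (0.854, 0.873 and 0.911). These 3 libraries are said below to stand apart or to be outlying in this sense only. The value of DMEM replicate 1 was close to that of 8-cell FLI replicate 1 (0.913), which was kept. In 8-cell FLI replicate 3 only 21.4% of the mapped reads were counted to genes.

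The members are among the most abundant transcripts in the table. Ribosomal and other small RNA genes such as those named RF00002 and RF00017 are not analysed here, so ranks and TPM are relative to the genes of the table. In TPM, a level per length, COX2 was the highest or second highest of the 20983 genes in every group, at 13788 ± 1158 in 2-cell FLI, 36323 ± 1844 in 4-cell FLI and 46485 ± 16109 TPM in 8-cell FLI embryos (SD, n = 3). In DMEM embryos COX2 had 14557 ± 3015, 36242 ± 3800.2 and 47531 ± 10535 TPM at the same stages. ATP6 ranked 2 or 3, COX1 between 3 and 7, CYTB between 3 and 7 and COX3 between 4 and 8 by the mean of a group. ATP8 ranked between 14 and 44. At the 2-cell stage the order was COX2, ATP6, COX1, CYTB, COX3 and ATP8 in both media, and in 8-cell DMEM embryos CYTB (29477 ± 7639.9 TPM) and COX3 (26501 ± 4770.2 TPM) had higher means than COX1 (23436 ± 5156 TPM). The ranges of these 3 genes overlapped there, but in each of the 3 libraries both CYTB and COX3 had a higher TPM than COX1, by at least 1.15 and 1.08 times.

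Together the 6 genes made up 5.20% of all TPM in 2-cell FLI, 12.5% in 4-cell FLI and 15.3% in 8-cell FLI embryos, and 5.51%, 12.6% and 16.5% in DMEM embryos of these stages (means of 3). In the plot of TPM by group the 3 genes of complex IV and ATP6 step up between the 2-cell and 4-cell marks, and the mean of CYTB is higher at each later stage.

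**Figure D1:**
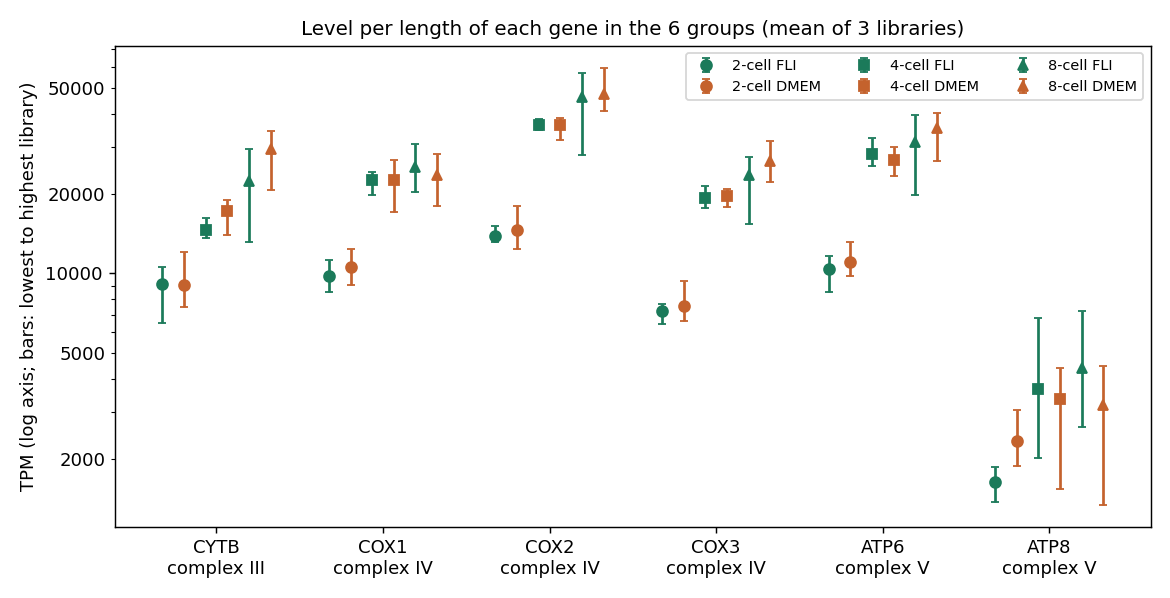
Mean TPM (log axis) of the 6 genes, ordered by complex, in 2-cell, 4-cell and 8-cell embryos of FLI and DMEM oocytes; bars run from the lowest to the highest of 3 libraries. COX2 is the highest in every group and ATP8 the lowest, at 1641 to 4406 TPM.

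The levels of all 6 genes were higher in 4-cell than in 2-cell embryos of FLI oocytes, by 2.09 to 3.55 times. In edgeR's quasi-likelihood test with Benjamini-Hochberg adjustment over 13187 genes, 6 of 6 members rose in FLI embryos, where 61.9% of all genes tested were called, 34.6% higher and 27.2% lower. In DMEM embryos 5 of 6 rose, where 63.6% of all genes were called, 35.2% higher and 28.4% lower. Over the 6 members the log2 fold change had a median of 1.69 in FLI and 1.65 in DMEM embryos, against 0.18 and 0.16 for all genes tested. CPM measures a gene relative to the other RNA of a library, and with pools of whole embryos more mitochondrial RNA per embryo and less other RNA per embryo cannot be told apart.

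At the 2-cell stage CYTB had 3383, 2044 and 3285 CPM in FLI embryos, against 3974, 2390.3 and 2403 CPM in DMEM embryos. In 4-cell embryos it had 5439, 6679.7 and 6128 CPM in FLI embryos, against 8679.6, 5922 and 8394 CPM in DMEM embryos. In 8-cell embryos it had 10492, 4854 and 10732 CPM in FLI embryos, against 14523, 8820.5 and 16893 CPM in DMEM embryos. CYTB, the complex III subunit, was thus higher in every 4-cell library than in any 2-cell library, and 8-cell FLI replicate 2 was the lowest of the later libraries. The log2 fold change of 4-cell over 2-cell embryos was 1.07 ± 0.31 (SE) in FLI embryos (edgeR adjusted p = 0.0069) and 1.39 ± 0.32 in DMEM embryos (edgeR adjusted p = 9.6e-04). These were the smallest changes among the members in FLI embryos and the second smallest, after ATP8, in DMEM embryos.

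Among 2-cell libraries COX1 had 3687, 4051 and 4927 CPM in FLI embryos, against 5519, 3909 and 4407 CPM in DMEM embryos. The 4-cell libraries had 10711, 13156 and 14235 CPM in FLI embryos, against 14583, 9787 and 16365 CPM in DMEM embryos. The 8-cell libraries had 14464, 10154 and 15240.4 CPM in FLI embryos, against 14225, 10414 and 18751 CPM in DMEM embryos. No 2-cell library reached the lowest 4-cell library, and the 4-cell and 8-cell ranges overlapped in both media. COX1 rose by 1.59 ± 0.25 on the log2 scale in 4-cell over 2-cell FLI embryos (edgeR adjusted p = 3.0e-05) and by 1.56 ± 0.25 in DMEM embryos (edgeR adjusted p = 3.6e-05).

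In 2-cell pools COX2 had 2515, 2488 and 2942 CPM in FLI embryos, against 3568, 2379 and 2551 CPM in DMEM embryos. The 4-cell pools had 8619, 8692 and 10085 CPM in FLI embryos, against 10533, 8168 and 10496 CPM in DMEM embryos. The 8-cell pools had 14113, 6225 and 12619 CPM in FLI embryos, against 10869.9, 10737 and 17618 CPM in DMEM embryos. COX2 rose 3.45-fold in 4-cell over 2-cell FLI embryos, with a log2 fold change of 1.79 ± 0.28 (edgeR adjusted p = 2.2e-05), and 3.44-fold in DMEM embryos (1.78 ± 0.28, edgeR adjusted p = 2.3e-05). The 3 libraries of 4-cell FLI embryos lay close together, with a coefficient of variation of 9.05%, against 38.1% in 8-cell FLI embryos.

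At 2 cells COX3 had 1659, 1385 and 1703 CPM in FLI embryos, against 2109, 1453 and 1446 CPM in DMEM embryos. At 4 cells it had 5182, 6072 and 5292 CPM in FLI embryos, against 6515, 5205 and 6199 CPM in DMEM embryos. At 8 cells it had 8172, 3906 and 6935 CPM in FLI embryos, against 7763, 6485 and 10622 CPM in DMEM embryos. COX3, the third core subunit of complex IV, showed the same separation of 2-cell libraries from all later ones. Its log2 fold change in 4-cell over 2-cell embryos was 1.80 ± 0.26 in FLI (edgeR adjusted p = 9.0e-06) and 1.84 ± 0.26 in DMEM embryos (edgeR adjusted p = 6.9e-06).

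Before the 4-cell stage ATP6 had 2095, 1600.1 and 2247 CPM in FLI embryos, against 2574, 1966 and 1862 CPM in DMEM embryos. At the 4-cell stage it had 6419, 8029.6 and 6633 CPM in FLI embryos, against 8198, 5908 and 7275 CPM in DMEM embryos. At the 8-cell stage it had 10217, 4338 and 7529.8 CPM in FLI embryos, against 10189, 6781 and 11782 CPM in DMEM embryos. ATP6 was higher in every 4-cell library than in any 2-cell library, and it had the largest change of the members in FLI embryos, with a log2 fold change of 1.83 ± 0.28 (edgeR adjusted p = 2.0e-05). In DMEM embryos the change was 1.74 ± 0.28 (edgeR adjusted p = 3.3e-05).

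In the 2-cell groups ATP8 had 78.5, 94.5 and 107 CPM in FLI embryos, against 180.1, 107 and 115 CPM in DMEM embryos. In the 4-cell groups it had 145, 159 and 529.8 CPM in FLI embryos, against 343, 116 and 353 CPM in DMEM embryos. In the 8-cell groups it had 202, 225 and 470.3 CPM in FLI embryos, against 294, 102 and 391 CPM in DMEM embryos. ATP8, which shares its mRNA with ATP6, was the most scattered member, and in DMEM embryos replicate 2 of the 4-cell and of the 8-cell stage lay within or below the 2-cell range. The log2 fold change of 4-cell over 2-cell embryos was 1.57 ± 0.54 in FLI embryos (edgeR adjusted p = 0.017) and 1.01 ± 0.53 in DMEM embryos, where it did not pass (edgeR adjusted p = 0.101, 95% interval -0.09 to 2.12). The FLI call rested on single libraries. It was lost without 4-cell FLI replicate 3, which had the highest ATP8 level of all (0.60, edgeR adjusted p = 0.31), and without 2-cell FLI replicate 1 (1.36, edgeR adjusted p = 0.072).

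**Figure D2:**
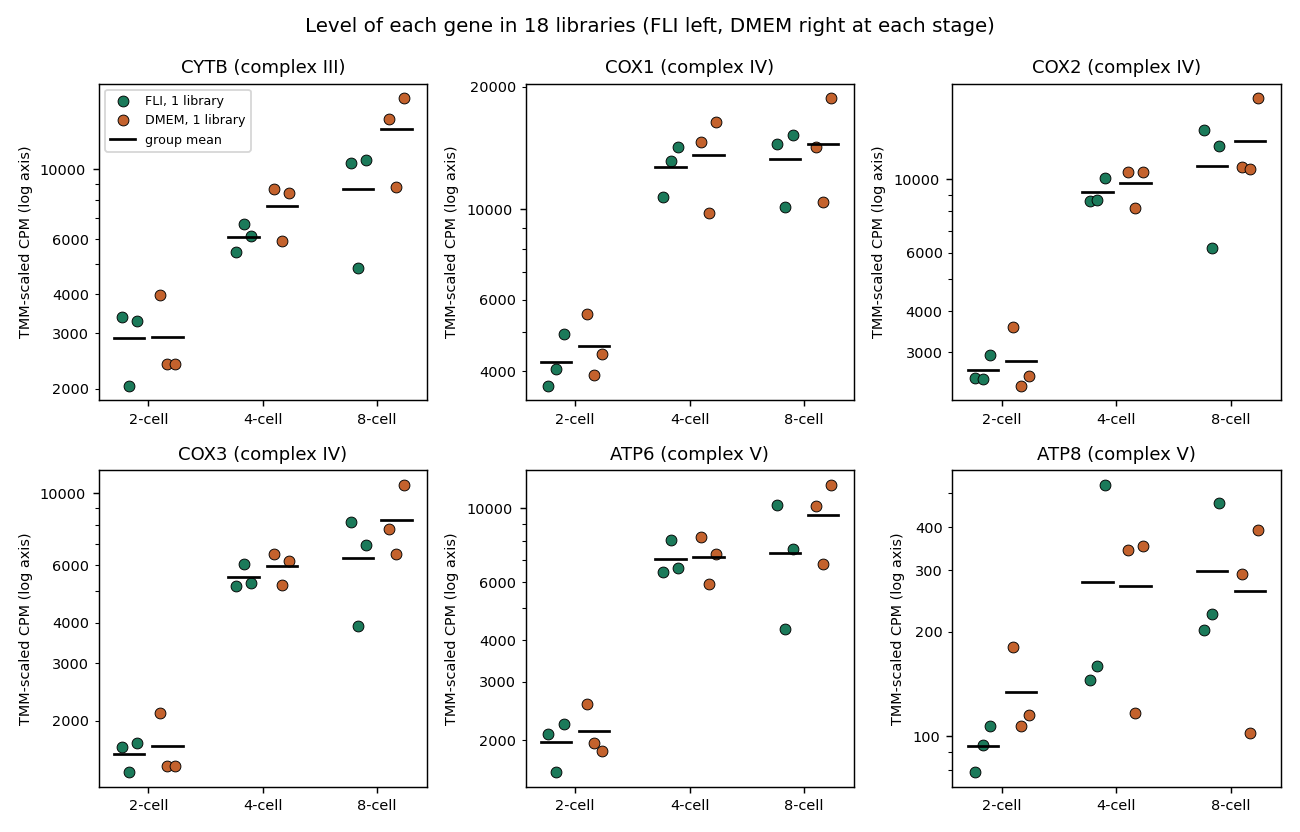
TMM-scaled CPM (log axis, a different range in each panel) of each gene in all 18 libraries, with the mean of each group as a line. For CYTB, COX1, COX2, COX3 and ATP6 every 2-cell library lies below every 4-cell library, and for ATP8 the FLI libraries are apart while 1 DMEM library of 4 cells lies among those of 2 cells.

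The ATP8 call in DMEM embryos was gained when only the groups compared were fitted (1.03, edgeR adjusted p = 0.0072), where 77.7% of all genes were called. It was also gained without the 3 8-cell libraries that stand apart, namely FLI replicates 2 and 3 and DMEM replicate 1 (1.01, edgeR adjusted p = 0.032), where 67.1% were. The difference between the media in the step to the 4-cell stage was itself tested, and 0 of 6 members passed, where 0% of all genes were called. It was 0.56 ± 0.74 for ATP8 on the log2 scale, -0.32 ± 0.44 for CYTB and between -0.04 and 0.09 for the other 4, with edgeR unadjusted p of 0.46 or more.

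From the 4-cell to the 8-cell stage no member passed the test in either medium. In FLI embryos 0 of 6 members were called, where 3.05% of all genes were (0.804% higher and 2.24% lower), and in DMEM embryos 0 of 6, where 0% were. An unadjusted p under 0.05 was reached by 0 members in FLI embryos and by 1, CYTB, in DMEM embryos, where 19.9% and 14.5% of all genes reached it, and DESeq2 and limma voom also called 0 of 6 in both (of all genes DESeq2 called 9.02% in FLI and 3.5% in DMEM embryos, and limma voom 5.34% and 0.167%). CYTB averaged 8693 ± 3326 CPM in 8-cell FLI embryos and 6082 ± 622 CPM in 4-cell FLI embryos, a log2 difference of 0.52 ± 0.31 (95% interval -0.14 to 1.17). In DMEM embryos it averaged 13412 ± 4149 CPM at 8 cells and 7665 ± 1517 CPM at 4 cells, a log2 difference of 0.81 ± 0.31 (95% interval 0.15 to 1.46, edgeR adjusted p = 0.24). COX1 was among the members nearest to 0 in FLI embryos, at 0.07 ± 0.25, with an interval of -0.45 to 0.58. In both media the intervals of all 6 genes reach above 0.5, so a rise of that size is within the error of 3 pools a group.

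The result at this step moved with the scaling and with the libraries used. Scaled to mapped reads in place of counted reads, the median of the members in FLI embryos was -0.35, against 0.15 with TMM scaling, and the median of all genes was -0.38, against 0.03. Without 8-cell FLI replicates 2 and 3 and 8-cell DMEM replicate 1, the median of the members was 0.54 in FLI and 0.44 in DMEM embryos. That fit leaves 1 library of 8-cell FLI embryos. In DMEM embryos COX2 was at 0.53 and CYTB at 0.74 there.

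**Figure D3:**
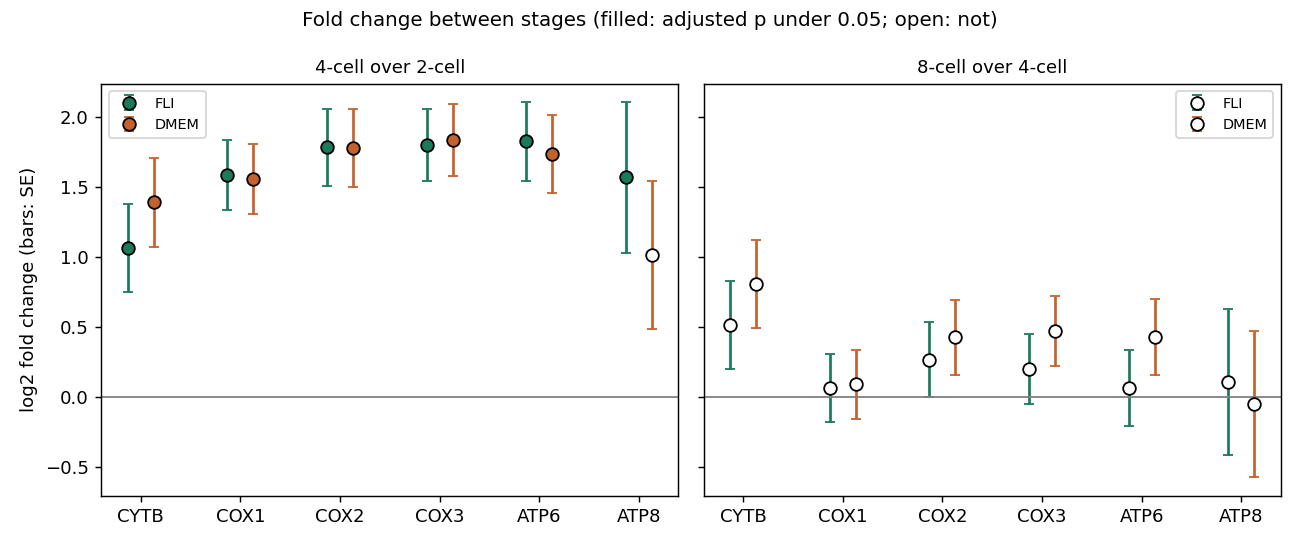
Log2 fold change with its standard error for 4-cell over 2-cell embryos (left) and 8-cell over 4-cell embryos (right), for FLI and DMEM; filled points passed an adjusted p under 0.05. On the left 11 of 12 points are filled, the open one being ATP8 in DMEM, and on the right none is.

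Over the whole span, 8-cell against 2-cell embryos, 6 of 6 members rose in FLI embryos, where 58.6% of all genes tested were called (34.6% higher and 24% lower), and 5 of 6 in DMEM embryos, where 65% were called (35.9% higher and 29% lower). The log2 fold changes in FLI embryos ran from 1.58 ± 0.32 for CYTB to 2.05 ± 0.28 for COX2. In DMEM embryos they ran from 1.65 ± 0.25 for COX1 to 2.31 ± 0.26 for COX3 among the 5 that rose, and CYTB was at 2.20 ± 0.32. ATP8 had 0.97 ± 0.53 in DMEM embryos (edgeR adjusted p = 0.12). Scaled to mapped reads, 4 of 6 members were called in FLI embryos, without ATP8 (0.84, edgeR adjusted p = 0.12) and CYTB (0.84, edgeR adjusted p = 0.051), and 55% of all genes were called. The ATP8 call in FLI embryos was also lost without 8-cell FLI replicate 3 (1.11, edgeR adjusted p = 0.097), without 2-cell FLI replicate 1 (1.43, edgeR adjusted p = 0.064) and without all 3 of the outlying 8-cell libraries (1.10, edgeR adjusted p = 0.095).

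By group means, COX2, COX3, ATP6 and CYTB were ordered 8-cell DMEM, 8-cell FLI, 4-cell DMEM, 4-cell FLI, 2-cell DMEM and 2-cell FLI, highest first. COX1 had 4-cell DMEM above 8-cell FLI, and ATP8 began with 8-cell FLI and 4-cell FLI. Between neighbours in these orders the ranges of the 3 libraries overlapped everywhere except between 4-cell FLI and 2-cell DMEM embryos, where they were apart for COX1, COX2, COX3, ATP6 and CYTB. Ranges that lie apart were not counted over all genes. Between 2-cell and 4-cell embryos 61.9% of all genes in FLI and 63.6% in DMEM were called, so this separation is no trait of the members alone.

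The maturation medium was not accompanied by a difference that passed the test in any member. FLI against DMEM embryos gave 0 of 6 called at every stage and over the 3 stages, where 0% of all genes tested were called in each of these 4 comparisons. By an unadjusted p under 0.05 the number was 0 of 6 in each as well, where 2.15%, 2.31%, 7.84% and 4.55% of all genes had one. DESeq2 and limma voom also called 0 of 6. DESeq2 called few of all genes at the 2-cell and 8-cell stages and over the 3 stages (counts in the last section), so its 0 of 6 says little about the members. The share of all genes for limma voom is not given here. Over the 3 stages the log2 differences of FLI against DMEM ran from -0.32 ± 0.18 for CYTB to -0.10 ± 0.29 for ATP8, all 6 with intervals that include 0. The narrowest interval, of COX1, was -0.40 to 0.16, and that of CYTB was -0.69 to 0.05. At the 8-cell stage the mean of CYTB was 8693 ± 3326 CPM for FLI and 13412 ± 4149 CPM for DMEM embryos, and the log2 difference was -0.63 ± 0.31 (edgeR unadjusted p = 0.06, adjusted p = 0.65), and the ranges overlapped. The difference between the media in the step to 8 cells was called for 0 of 6 members, where 0% of all genes were, with values of -0.36 for ATP6 to 0.15 for ATP8 and edgeR unadjusted p of 0.36 or more.

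The study also set 4-cell FLI embryos against 8-cell DMEM embryos. Here 0 of 6 members passed, where 0% of all genes tested were called, and 2 of 6, CYTB and COX3, had an unadjusted p under 0.05, as 15.4% of all genes did. CYTB had 5439, 6679.7 and 6128 CPM in 4-cell FLI embryos, against 14523, 8820.5 and 16893 CPM in 8-cell DMEM embryos. The 2 ranges were apart, and the log2 difference was -1.14 ± 0.31 (95% interval -1.80 to -0.48, edgeR adjusted p = 0.13). DESeq2 called CYTB lower in 4-cell FLI embryos (-1.22, DESeq2 adjusted p = 0.022), where it called 3.66% of all genes, and limma voom called 0 of 6 members. edgeR called CYTB without 8-cell FLI replicate 2 (-1.10, adjusted p = 0.015), where 3.95% of all genes were called. That library belongs to neither group compared, and its absence acts through the shared estimate of spread and the filter. The SE was 0.24 without it, against 0.31. Without the 3 8-cell libraries that stand apart, CYTB (-1.07), COX2 (-0.62) and COX3 (-0.62) were called lower by edgeR, where 15.9% of all genes were called. COX1 differed by -0.19 ± 0.25 and ATP8 by 0.08 ± 0.52.

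A second measure, the share of each gene in the counts of the 13 mitochondrially encoded genes, does not depend on the nuclear transcripts. It was tested by exact two-sided permutation of the stage labels within each medium, or of the media within each stage, with adjustment over 28 values, and the smallest p that the 400 regroupings of 2 stages allow is 0.005. The 13 genes together took 6.71 ± 1.02% of all counts in 4-cell embryos and 2.70 ± 0.499% in 2-cell embryos (SD, n = 6 libraries each, exact permutation test, adjusted p = 0.023), and 10.2 ± 3.52% in 8-cell embryos. The difference of 8-cell from 4-cell embryos did not pass (exact permutation test, adjusted p = 0.14), but it did without 8-cell FLI replicate 2 (log2 difference 0.75, exact permutation test, adjusted p = 0.031). As a share of mapped reads, the 13 genes took 1.89%, 4.25% and 3.72% in FLI embryos of 2, 4 and 8 cells, and 1.93%, 4.52% and 5.43% in DMEM embryos. The share of mapped reads that was counted to genes moved with the stage, at 70.2%, 66.2% and 45.5% in FLI and 71.9%, 65.0% and 49.9% in DMEM embryos, and its part in the 8-cell values was not tested.

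Within the mitochondrial counts, COX2, COX3 and ATP6 rose in share between 2-cell and 4-cell embryos and the other 3 members did not pass the test. COX2 made up 13.2 ± 1.14% of them in 4-cell embryos and 10.6 ± 0.747% in 2-cell embryos (SD, n = 6 each, exact permutation test, adjusted p = 0.023). COX3 rose to 8.08 ± 0.864% in 4-cell embryos, against 6.29 ± 0.332% in 2-cell embryos (exact permutation test, adjusted p = 0.023), and for both genes all 6 libraries of 4-cell embryos lay above all 6 of 2-cell embryos. ATP6 rose to 9.93 ± 1.16% in 4-cell embryos, against 7.96 ± 0.598% in 2-cell embryos (exact permutation test, adjusted p = 0.04), with overlapping ranges. This call was lost with TPM in place of counts (adjusted p = 0.053) and when any 1 of 9 libraries was left out, with an adjusted p of 0.053 to 0.080 in the same exact permutation test. Leaving out a library allows fewer regroupings and so raises the smallest p that can be reached. The adjusted p of COX2 and COX3 rose to as much as 0.047 in that test. The log2 difference of ATP6 stayed between 0.26 and 0.36 over all alternatives. COX1, the most counted member, had 18.2 ± 1.05% in 4-cell and 17.2 ± 1.87% in 2-cell embryos, which did not pass (exact permutation test, adjusted p = 0.41).

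The mean share of CYTB was lower at this step without passing the test, at 9.53 ± 0.699% of the mitochondrial counts in 4-cell and 11.12 ± 1.18% in 2-cell embryos (exact permutation test, adjusted p = 0.062). It passed when ND6, the gene on the opposite strand, was left out of the total, and with TPM in place of counts (exact permutation test, adjusted p = 0.020 in both). Between 4-cell and 8-cell embryos, CYTB was the 1 member of 6 whose share passed the test, and it rose. It had 10.2, 9.89 and 10.6% in 8-cell FLI embryos, against 9.03, 9.57 and 8.52% in 4-cell FLI embryos. In DMEM embryos it had 13.1, 11.2 and 11.4% at 8 cells, against 10.1, 10.4 and 9.50% at 4 cells. Within each medium the ranges did not overlap, and the means over both media were 11.06 ± 1.17% and 9.53 ± 0.699% (SD, n = 6 each, exact permutation test, adjusted p = 0.023).

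COX1 had 14.7 ± 3.04% in 8-cell and 18.2 ± 1.05% in 4-cell embryos (exact permutation test, adjusted p = 0.062), and 8-cell FLI replicate 2 was the exception, with 20.7%. Without that library the fall of the COX1 share passed (log2 difference -0.41, exact permutation test, adjusted p = 0.023). Between 8-cell and 2-cell embryos the share of 1 of 6 members, COX3, passed the test, at 7.52 ± 0.586% against 6.29 ± 0.332% (exact permutation test, adjusted p = 0.023), and COX2 joined it without 8-cell DMEM replicate 1. ATP8 made up 0.296 ± 0.137% in 8-cell and 0.438 ± 0.0894% in 2-cell embryos (exact permutation test, adjusted p = 0.14).

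No share differed between the media past the threshold. The lowest p was that of CYTB, with 10.2 ± 1.31% in FLI and 10.99 ± 1.06% in DMEM libraries (SD, n = 9 each, exact permutation test within stages, p = 0.062, adjusted p = 0.14). Without 2-cell FLI replicate 1 this difference passed (exact permutation test, adjusted p = 0.028). At the 8-cell stage the media did not overlap for COX1, which had 14.03, 20.7 and 15.01% in FLI embryos and 12.9, 13.2 and 12.6% in DMEM embryos, or for CYTB, whose values are given above. At the 2-cell stage they did not overlap for ATP8, with 0.302, 0.442 and 0.360% in FLI and 0.531, 0.495 and 0.497% in DMEM embryos. With 3 libraries against 3, an exact permutation test within 1 stage cannot give a p below 0.10, so these 3 gaps, of 18 combinations of gene and stage, are descriptions. If labels are shuffled at random, a gap in either direction has a probability of 0.10 for each gene and stage. Such gaps were not counted over other genes.

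**Figure D4:**
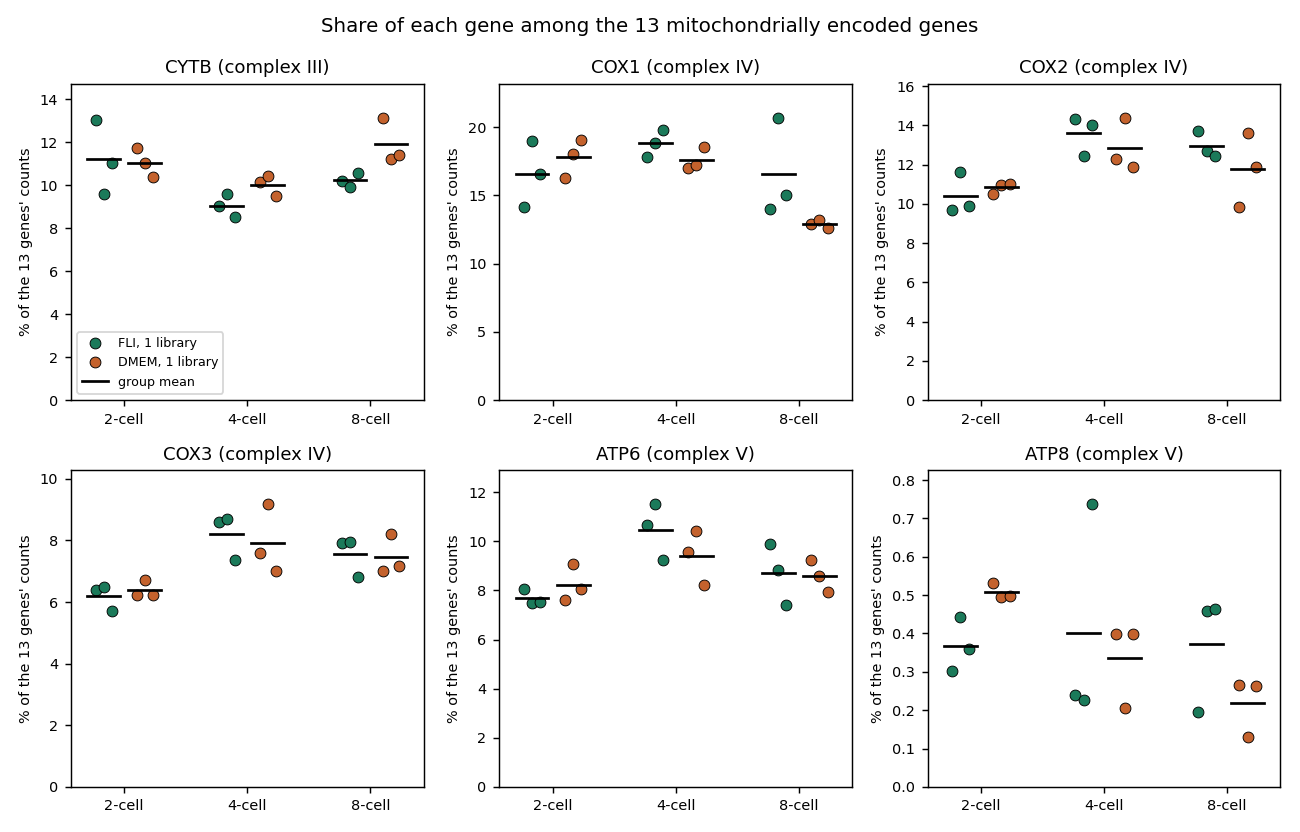
Share of each gene in the counts of the 13 mitochondrially encoded genes (percent, axes from 0) in all 18 libraries, FLI left and DMEM right at each stage, with group means as lines. COX2 and COX3 step up between 2-cell and 4-cell embryos, CYTB is lowest at 4 cells, and COX1 is lowest in 8-cell DMEM embryos.

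Along the mitochondrial genome, in the order of the genes, the mean log2 share of 4-cell minus 2-cell embryos was -0.51 for ND1, -0.01 for ND2, 0.09 for COX1 and 0.32 for COX2. It was -0.37 for ATP8, 0.31 for ATP6, 0.36 for COX3, 0.34 for ND3 and 0.38 for ND4L. The last 4 genes had -0.04 (ND4), -0.34 (ND5), -0.37 (ND6) and -0.22 (CYTB). With the exception of ATP8, the genes from COX2 to ND4L had values above 0.3 and ND1 and the genes from ND4 to CYTB had values below 0. From 4 to 8 cells the values of ND1 (0.37), ND5 (0.29), CYTB (0.21), ND6 (0.11), ND4 (0.10) and ND4L (0.02) were above 0. Those of COX1 (-0.32), ATP8 (-0.30), ATP6 (-0.20), ND3 (-0.17), COX2 (-0.10), COX3 (-0.10) and ND2 (-0.06) were below 0. The shares of the 13 genes sum to 1 total, so a gain of some is a loss of others, and this order is given without a test.

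**Figure D5:**
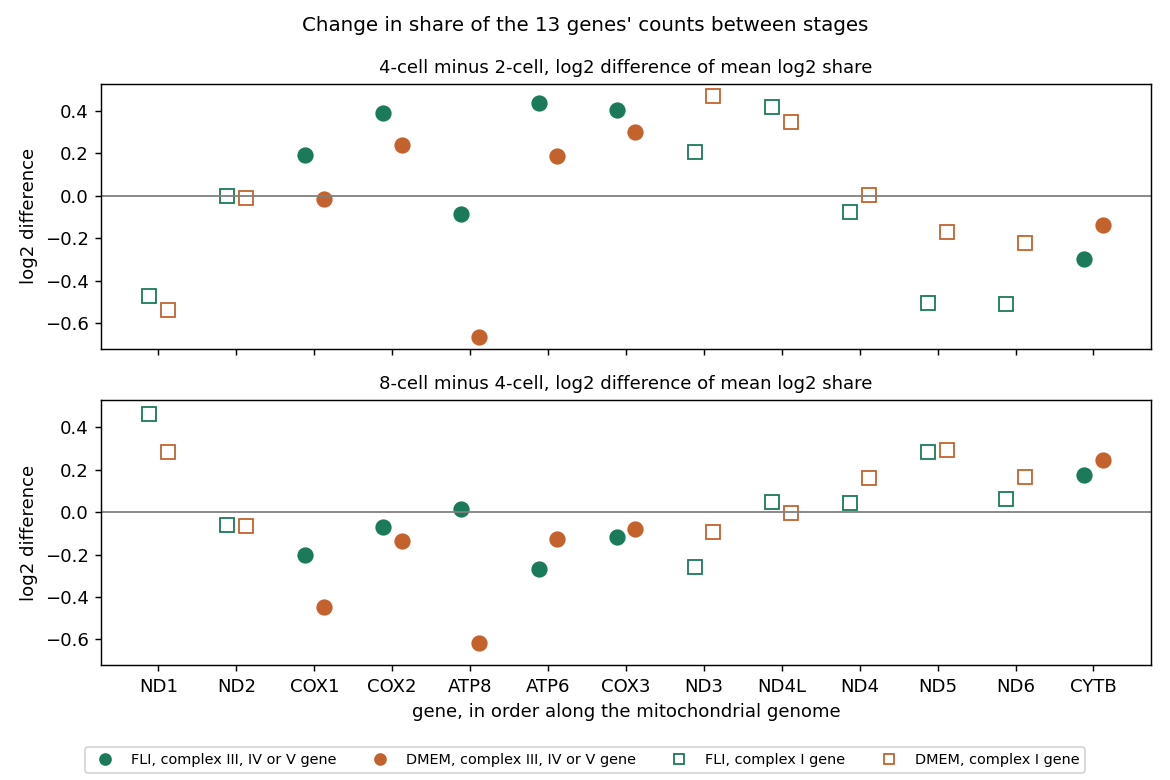
Difference between stages in the mean log2 share of the 13 genes' counts, with the genes in their order along the mitochondrial genome; filled circles are genes of complexes III, IV and V and open squares genes of complex I. In both media the middle of the genome, from COX2 to ND4L without ATP8, lies above 0 for 4-cell minus 2-cell embryos, and ND1 and the genes from ND4 to CYTB lie above 0 for 8-cell minus 4-cell embryos.

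Levels per length of the members were also set against each other as ratios of TPM. COX2 had 1.42 ± 0.101 times the TPM of COX1 in 2-cell FLI, 1.63 ± 0.165 in 4-cell FLI and 1.81 ± 0.410 in 8-cell FLI embryos (SD, n = 3). In DMEM embryos the ratio was 1.37 ± 0.0761, 1.65 ± 0.218 and 2.05 ± 0.304 at these stages. COX3 had 0.718 ± 0.0558 times the TPM of ATP6 over all 18 libraries and 0.532 ± 0.0428 times that of COX2 (range 0.460 to 0.627), the 2 least variable of the 8 ratios computed. CYTB had 0.653 ± 0.0605 times the TPM of COX1 in 4-cell FLI and 1.25 ± 0.121 times in 8-cell DMEM embryos, the lowest and the highest group means of this ratio. ATP8 had 0.144 ± 0.0652 times the TPM of ATP6 over the 18 libraries, with a range of 0.0504 to 0.267, although both lie on 1 mRNA. The fragment length of the libraries, which bears on the count of a gene of 204 bases, is not given in the sources used here.

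Among the members, COX3 and ATP6, which adjoin each other, were the most alike over the 18 libraries (Pearson's r of log2 CPM 0.99, n = 18, and 0.96 after group means were removed). ATP8 was the least like the others, with r of 0.68 to 0.80, and with its partner ATP6 it had r of 0.69. With group means removed the r of ATP8 ran from 0.41 with ATP6 to 0.81 with COX1, and that with COX1 was above those of COX1 with COX3 (0.79) and ATP6 (0.76). The r of a gene with the mean of the 6 members, which contains the gene itself, was 0.80 for ATP8 and 0.96 to 0.99 for the other 5. These are descriptions over libraries that share the difference between 2-cell and later stages.

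The other genes of the pathway were described by lists of complex I genes, nuclear encoded subunits, assembly factors and mRNA genes. Of the 7 mitochondrially encoded complex I genes, 6 rose in 4-cell over 2-cell FLI embryos, ND1 being the exception (1.02 ± 0.47, edgeR adjusted p = 0.069), and 7 rose in DMEM embryos. The median of these 7 log2 fold changes was 1.30 for FLI and 1.54 for DMEM embryos. Among the nuclear encoded subunits in FLI embryos, 8 rose and 0 fell of 8 tested in complex III (median 2.41), 8 rose and 1 fell of 11 in complex IV (median 1.78) and 8 rose and 2 fell of 13 in complex V (median 1.20), where of all genes tested 34.6% were called higher and 27.2% lower. In DMEM embryos 8 rose and 0 fell of 8 in complex III (median 2.49), 8 rose and 1 fell of 11 in complex IV (median 2.67) and 7 rose and 0 fell of 13 in complex V (median 0.93), against 35.2% higher and 28.4% lower among all genes. Between 4-cell and 8-cell embryos edgeR called 0 of these 32 subunits in either medium (3 in FLI and 4 in DMEM embryos had an unadjusted p under 0.05), DESeq2 called 2 and 1, and limma voom 1 and 0. Of all genes, 19.9% in FLI and 14.5% in DMEM embryos had such an unadjusted p, DESeq2 called 9.02% and 3.5%, and limma voom 5.34% and 0.167%. COX7A2L, a subunit that takes part in joining complexes III and IV, was the 1 complex IV gene that fell in both media, by the log2 fold changes of -1.05 ± 0.31 in FLI and -1.47 ± 0.31 in DMEM embryos.

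The nuclear encoded subunit with the highest TPM in each complex, among the 32 of 39 listed subunits that were found in the table, shows the scale. COX4I1, the regulatory subunit of complex IV that binds early in its assembly, had 1088 ± 201 TPM in 4-cell FLI and 48.7 ± 6.39 TPM in 2-cell FLI embryos, a log2 fold change of 4.86 ± 0.44 (edgeR adjusted p = 3.1e-08). In DMEM embryos its log2 fold change was 5.38 ± 0.45 (edgeR adjusted p = 9.1e-09). UQCRB, a subunit of complex III, had 546 ± 152 TPM in 4-cell FLI and 164 ± 28.4 TPM in 2-cell FLI embryos, and rose by 2.11 ± 0.42 (edgeR adjusted p = 3.2e-04) on the log2 scale. ATP5MK, a small subunit of the membrane part of ATP synthase, had 294 ± 51.5 TPM in 4-cell FLI and 65.7 ± 15.6 TPM in 2-cell FLI embryos, and rose by 2.53 ± 0.35 (edgeR adjusted p = 6.4e-06). In 4-cell FLI embryos the TPM of COX1 was thus 22466 ± 2379, against 1088 for COX4I1, while the fold change of COX4I1 was the larger, at 4.86 against 1.59 on the log2 scale.

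Genes that assemble complexes III, IV and V (26 tested) and genes of transcription, stability and translation of mitochondrial mRNA (21 tested) were mixed. Of the assembly factors, 14 rose and 4 fell in 4-cell over 2-cell FLI embryos (median 1.33) and 15 rose and 4 fell in DMEM embryos (median 1.48). Of the mRNA genes, 13 rose and 4 fell in FLI embryos (median 1.39) and 13 rose and 5 fell in DMEM embryos (median 1.58). The shares over all genes were 34.6% higher and 27.2% lower in FLI and 35.2% higher and 28.4% lower in DMEM embryos. The highest log2 fold changes were 6.25 in FLI and 6.21 in DMEM embryos among assembly factors, and 9.67 and 10.1 among mRNA genes. The genes named next were singled out after their values were seen. All of them but LRPPRC fell, while most called genes of both lists rose, and their part in the rise of the members was not tested. LYRM7, which brings the iron-sulfur protein into complex III, had log2 fold changes of -2.74 ± 0.35 in FLI and -2.51 ± 0.35 in DMEM embryos, and COA4 and COA5, both needed for complex IV, fell in both media too (COA4 -2.63 in FLI and -3.01 in DMEM embryos, COA5 -2.21 in FLI and -2.35 in DMEM embryos). SUPV3L1 and PNPT1, the helicase and the nuclease that degrade RNA in mitochondria, also fell (SUPV3L1 -1.10 in FLI and -0.99 in DMEM embryos, PNPT1 -0.62 in FLI and -0.54 in DMEM embryos). LRPPRC, which stabilizes mitochondrial mRNA, rose, with 1.68 ± 0.37 in FLI and 1.68 ± 0.37 in DMEM embryos. All lists without the members, those of complex I and the nuclear encoded subunits included, held 86 tested genes. Between FLI and DMEM embryos edgeR, DESeq2 and limma voom called 0 of these 86 at any stage, where edgeR called 0% of all genes at each stage. DESeq2 called few of all genes at 2 and 8 cells (counts in the last section), and that share is not given here for limma voom. Of the 86, 3, 0 and 3 had an edgeR unadjusted p under 0.05 in embryos of 2, 4 and 8 cells, against 2.15%, 2.31% and 7.84% of all genes. In 8-cell over 4-cell embryos edgeR called 1 of these 86, LYRM7, which was higher in FLI embryos (log2 fold change 1.46, edgeR adjusted p = 0.035). DESeq2 called 5 in FLI and 3 in DMEM embryos, limma voom 3 and 0, and an edgeR unadjusted p under 0.05 was reached by 10 and 14. These are near or below the shares over all genes given above for the same tools and steps.

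Outside the mitochondrial chromosome, the 5 genes whose log2(CPM + 1) over the 18 libraries was most like the mean of the members were SPTBN4, KRT10, MDM2, TTC33 and CDK16, with Pearson's r of 0.97, 0.96, 0.95, 0.95 and 0.95. Such values were common, since 959 of 13174 nuclear genes had an r above 0.9. MDM2, the ubiquitin ligase of p53, averaged 2.53 CPM in 2-cell FLI, 31.9 in 4-cell FLI and 37.3 CPM in 8-cell FLI embryos. CDK16, a cyclin-dependent kinase, had 31.4, 95.4 and 95.9 CPM at the same stages. SPTBN4 and KRT10 were nearly absent in 2-cell FLI embryos, at 0.067 and 0.095 CPM, and had 10.1 and 4.93 CPM in 4-cell FLI embryos. The likeness of these 2 genes is thus one of direction and timing, from a level near 0. These genes were chosen for this likeness, and no test is given.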

How the data were processed

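Porcine parthenogenetic embryos gave 18 pooled RNA samples, prepared with a SMARTer stranded total RNA pico kit and sequenced on a NovaSeq. Per the study's methods and the labels, the authors mapped reads with bowtie2 and computed expression with the Dragen software, and the build is Sscrofa11.1. For versions, the strand setting and the treatment of multiply mapped reads, nothing was given in the sources used here. The table deposited by the authors holds raw counts, RPKM and TPM per gene, and 18 columns of CPM, whose sums differ between libraries and which were not used. RPKM of the authors served only to infer the number of mapped reads, which came out whole in every library. The labels give each library its stage and medium.

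Raw counts were tested with edgeR 4.0.16 in R 4.3.3: filterByExpr, TMM factors, the quasi-likelihood test in 1 model of the 6 group means, and Benjamini-Hochberg adjustment over 13187 genes, with a call at an adjusted p under 0.05. For FLI against DMEM over the 3 stages the model held stage and medium. Standard errors are the log2 fold change divided by the square root of F, and 95% intervals use the t distribution of the same fit. The fit was tested on simulated data. Shares of the counts of the 13 mitochondrially encoded genes were compared, on the log2 scale, with exact permutation tests that enumerate every regrouping, computed with numpy 2.4.6. Alternatives were DESeq2 1.42.0, limma voom 3.58.1, other scalings and filters, the fold change limit of the study (log2 beyond 1.5) with a p under 0.05, taken here as unadjusted because the sources do not say which it was, a replicate block and leaving out each library. A robust fit and a fit without 3 8-cell libraries were chosen after seeing the data.

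The members and the lists were chosen with earlier results of these data known. By rule the text names the 6 members, the complex I genes where order or share is given, the nuclear encoded subunit of highest TPM in each complex and the 5 nuclear genes most like the members' mean. Outside this rule, COX7A2L, LYRM7, COA4, COA5, SUPV3L1, PNPT1 and LRPPRC, and ND1 for its fold change, were named after their values were seen. Of 5485 rows with an ID only, 193 were named from the RefSeq table, and UQCRH, COX6B1, ATP5F1B, ATP5F1E, ATP5MF, ATP5MJ, ATP5PD, COX20, COA6 and FASTKD4 are not analysed here. The coordinates of the 13 genes are the same in the RefSeq table of the same build.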

Additional observations from a re-analysis of the deposited data

How the results depend on the processing

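The log2 fold changes of the 6 members gave 2412 values under the alternatives, of which 2394 kept their side of the threshold, 9 lost a call, 9 gained one and 0 called values changed sign. In the comparisons of 4-cell and 8-cell with 2-cell embryos no sign changed among 744 values, and 123 uncalled values of the other comparisons, counted within the above, changed sign. Of 580 values of shares, 561 kept their side of the threshold and 10 lost and 9 gained a call. The sign of 17 uncalled shares, counted within these, changed. The fit without the 3 8-cell libraries that stand apart leaves 8-cell FLI with 1 library that is assumed to vary like the other groups. The calls it gained are counted within the above, but they add no evidence, since leaving out unlike libraries lowers the shared spread. Between 4-cell FLI and 8-cell DMEM embryos DESeq2 called 1 member, against 0, and leaving out single libraries gave 0 to 1. Members whose share differed ranged over single libraries left out from 1 to 2 (8-cell against 4-cell), from 1 to 2 (8-cell against 2-cell) and from 0 to 1 (FLI against DMEM). For 4-cell against 2-cell embryos ATP6 lost its call as given above. The lower CYTB share passed without 2-cell FLI replicate 2 and without 2-cell DMEM replicate 3 (exact permutation test, adjusted p = 0.04 in both). A lower ATP8 share passed without 4-cell FLI replicate 3 (log2 difference -0.65, exact permutation test, adjusted p = 0.035). With the fold change limit of the study and an unadjusted p CYTB was not called in 4-cell over 2-cell embryos of either medium. In 4-cell over 2-cell embryos the scaling to mapped reads moved the median of all genes by -0.21 in FLI and -0.32 in DMEM embryos, and the members' median stood 1.5 to 1.66 above it in FLI and 1.48 to 1.68 above it in DMEM embryos under all planned scalings and tools. The replicate numbers do not pair the libraries (4 of 45 same-numbered pairs had a correlation of deviations over 0.1, range -0.24 to 0.40, and 5 of 18 libraries were most like one of their own number), and the model with the number as a replicate block called 6 members in FLI and 5 in DMEM embryos for 4-cell over 2-cell and changed no call of a member. The alternative of fitting only the groups compared was not run for FLI against DMEM over the 3 stages, which already uses all libraries. Counts over all genes depended on the tool. In 8-cell over 4-cell embryos edgeR called 402 genes in FLI and 0 in DMEM embryos, DESeq2 1189 and 461, and limma voom 704 and 22, and for 4-cell FLI against 8-cell DMEM embryos the counts were 0, 482 and 24. Between FLI and DMEM edgeR called 0 genes at the 8-cell stage and 0 over the 3 stages, where DESeq2 called 49 and 11. At the 2-cell stage DESeq2 called 1. Leaving out single libraries gave 0 to 2220 genes for 8-cell over 4-cell FLI embryos (2220 without 8-cell FLI replicate 2), 0 to 430 for DMEM embryos and 0 to 561 for 4-cell FLI against 8-cell DMEM embryos. In FLI embryos this step had 9 genes with scaling to mapped reads, 138 without the filter on low counts, 0 with only the groups compared, 180 with the replicate block and 678 with the fold change limit of the study and an unadjusted p. That rule also called 541 genes in DMEM embryos at this step, and 130, 111 and 232 between FLI and DMEM in embryos of 2, 4 and 8 cells. Whether the study adjusted its p is not clear from the sources used here, so these counts need not be those of its own rule. Without the outlying 8-cell libraries 1251 genes were called in FLI and 2002 in DMEM embryos at this step. The cause of these changes was not tested.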
